A study of Mus musculus with 22 samples.

Results

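Complex I (NADH:ubiquinone oxidoreductase) is the largest enzyme of the mitochondrial respiratory chain, and most of its subunits are encoded in the nucleus. The genes described here are the 46 protein-coding genes whose GENCODE symbol starts with Ndufa, Ndufb, Ndufc, Ndufs, Ndufv or Ndufaf, out of 54356 genes and 21815 protein-coding genes in the deposited tables. They comprise 36 genes for complex I subunits, 8 genes for assembly factors (Ndufaf1 to Ndufaf8), and Ndufa4 and Ndufa4l2, which keep a complex I name although Ndufa4 is now counted as a subunit of complex IV. All 46 passed the filter on low counts and were tested in each comparison. RNA came from E13.5 embryos of strain C57BL/6, either with a conditional knockout of Prdm16 (cKO) or from littermate controls, which the sample titles call WT and the sample characteristics call Mock. Libraries were made from whole hearts (3 cKO, 3 control), isolated left ventricles (4 cKO, 4 control) and isolated right ventricles (4 cKO, 4 control). The Cre driver, the floxed allele and the number of embryos per library are not given in the sources used here. P-values therefore measure the spread between these libraries.

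Complex I takes electrons from NADH in its matrix arm, passes them along iron-sulfur clusters to ubiquinone, and pumps protons through its membrane arm. The N module at the tip of the matrix arm oxidises NADH, the Q module below it reduces ubiquinone, and the proximal and distal parts of the membrane arm hold the proton channels. Core subunits carry the cofactors and channels and are shared with bacteria, whereas accessory subunits surround them, and assembly factors help to build the enzyme but are absent from its finished form. The heart muscle of the embryo gains mitochondria and respiratory capacity later in gestation.

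Whole hearts held 38590751 to 62004017 reads, and the libraries of single ventricles 14508722 to 22830716. Prdm16, the targeted gene, lay between 19 and 25.8 CPM (counts scaled to a common library size with TMM factors) in the 11 cKO libraries and between 37.4 and 56.2 CPM in the 11 controls, with no overlap in any tissue. Counts per gene include exons that a deletion would leave, so this checks the labels and not the completeness of the knockout. Cardiomyocyte markers (Tnnt2, Myh7 and 8 others) summed to 19780.2 to 31403 TPM (Salmon's length-corrected abundance) over the 22 libraries, and 4 liver and lung markers to 0 to 5.82 TPM. On TPM, unlike on CPM, Prdm16 overlapped in the left ventricle, with cKO 1 at 5.75 TPM and control 1 at 5.37 TPM. Single libraries stood apart in their groups, namely right ventricle control 2 and whole heart control 1, and counts that rest on them are given with and without them.

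Within the left ventricle controls, levels per transcript length (TPM) spread widely although the finished enzyme holds most subunits as a single copy. Ndufa4 was at 792 ± 27.3 TPM and Ndufa3, a small membrane-arm subunit, at 688 ± 38.2 TPM, with no overlap between their libraries. Ndufb8 (418 ± 17.8 TPM) came next, and from Ndufb9 (318 TPM on average) down to Ndufb11 (179.9 TPM) each gene overlapped its neighbour in the order. The 7 core subunits lay between Ndufs3 (303 ± 27 TPM) and Ndufs8 (105 ± 8.84 TPM). Ndufb3 and Ndufb4 were the lowest subunits at 84.5 ± 2.1 and 66.7 ± 4.83 TPM. The assembly factors all lay below the subunits, from 19.3 ± 1.36 TPM for Ndufaf1 to 40.5 ± 2.67 TPM for Ndufaf3, and Ndufa4l2 was at 2.92 ± 0.54 TPM. The effective length that Salmon gave to short transcripts differed between libraries, so the main tests between groups are on counts. TPM are used to rank genes within a tissue and, where named, for summed levels.

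The stretches around the transcription start are shown first. RefSeq promoter windows (GRCm38.p6, 250 bases before to 50 bases after the start) were available for 40 of the 46 genes. A link between motifs and fold changes was not tested. The letters AAGATGGCG, a binding motif of the factor YY1, searched on both strands, were in 6 of the 40 windows (15%), against 1.4% of all 32851 promoter windows of that length and 2.60% of the 14786 windows of genes tested in the ventricles. In each of the 6 the letters lay on the transcribed strand, 10 to 35 bases after the start. The middle letters of the motif spell ATG, and in 5 of the 6 genes that ATG is an annotated start codon. Among all promoter windows, 63.0% of 332 matches on the transcribed strand began at or after the start. The 30 bases around each match follow, with the motif in capitals and the log2 fold change of the left ventricle cKO given after them.
Ndufs7 (chr10:80249463-80249492, plus strand): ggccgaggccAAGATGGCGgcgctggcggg
Ndufs6 (chr13:73328433-73328462, minus strand): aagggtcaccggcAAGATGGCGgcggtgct
Ndufa9 (chr6:126849096-126849125, minus strand): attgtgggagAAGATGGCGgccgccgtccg
Ndufs4 (chr13:114388045-114388074, minus strand): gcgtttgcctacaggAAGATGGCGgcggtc
Ndufc1 (chr3:51408914-51408943, minus strand): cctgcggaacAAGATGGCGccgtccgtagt
Ndufaf8 (chr11:120098934-120098963, plus strand): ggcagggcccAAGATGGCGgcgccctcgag
The first 5 of these genes were called lower in the left ventricle of the cKO and Ndufaf8 was not. Their log2 fold changes were -0.47, -0.45, -0.41, -0.33, -0.29 and -0.11 in the order shown. Of all 46 genes, with or without the motif, 36 (78.3%) were called lower there, so these calls do not set the motif genes apart.

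The palindromic motif of the nuclear respiratory factor NRF1, searched on both strands with its middle base left free, was in 9 of the 40 windows (22.5%), against 4.6% of all windows and 8.89% of those of tested genes. The 9 genes were Ndufa5, Ndufa6, Ndufa8, Ndufa11, Ndufb4, Ndufs5, Ndufs6, Ndufaf4 and Ndufaf5. Ndufb4 was not called in the left ventricle. The matches of the 3 called genes with the lowest left ventricle fold change are shown in capitals.
Ndufs6 (chr13:73328479-73328508, minus strand): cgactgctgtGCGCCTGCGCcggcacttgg
Ndufaf5 (chr2:140170652-140170681, plus strand): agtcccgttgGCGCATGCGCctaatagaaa
Ndufa8 (chr2:36049349-36049378, minus strand): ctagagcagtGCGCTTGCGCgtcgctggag
The ETS motif CCGGAAG, which GABPA can bind, was in 6 windows (15%), close to the 15.7% of tested genes. The oestrogen-related receptor motif AAGGTCA was in 3 (7.5%), against 3.28%. Such matches describe letters in these windows and show no binding.

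The left ventricle comparison asked which genes change there when Prdm16 is lost. Of the 36 complex I subunits, 31 were lower in the cKO (86.1%, against 13.4% of all 16448 genes called lower, edgeR's quasi-likelihood test with Benjamini-Hochberg adjustment) and 0 were higher, beside 12.3% of all genes. All 46 genes had a fold change below 0, as did 50.2% of all genes. At an unadjusted p under 0.05, 32 subunits were lower and 0 higher, beside 5955 of all 16448 genes in either direction. DESeq2 and limma voom called 31 subunits lower and 0 higher each. Of all genes, DESeq2 called 2162 of 16424 lower and voom 2656 of 16448. The median log2 fold change of the subunits was -0.33, with a range from -0.47 to -0.06, beside -0.00083 over all genes. In bulk tissue, fewer cells of a type and less RNA per cell cannot be told apart. All 7 core subunits and 24 of 29 accessory subunits were lower, with medians of -0.42 and -0.32. By part of the enzyme, 8 of 10 N module, 6 of 6 Q module, 7 of 9 proximal and 10 of 11 distal membrane-arm genes were lower, with medians of -0.37, -0.40, -0.34 and -0.32. The share called was not tested between these parts.

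Summed over the 36 subunits, counts in the left ventricle came to 3115, 3105, 3090.1 and 3146 CPM in the cKO, next to 4171, 3962, 3898 and 3810.0 CPM in controls. The cKO libraries were close to each other (SD 23.7 CPM, against 154 CPM among the controls) and all lay below the lowest control. In 32 of the 36 genes, the cKO and control libraries did not overlap (a pattern held by 15.0% of all genes). On the deposited TPM, which depend on other processing steps, the sum was 7049 ± 460 (SD, n = 4) in the cKO and 8146 ± 281 in the controls, again with no overlap (highest cKO 7553, lowest control 7926). Across 14 other settings that kept every library, 23 to 32 subunits were lower and 0 higher. The 23 came from limma on log2(TPM + 1) and 24 from length-scaled counts.

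**Figure D1:**
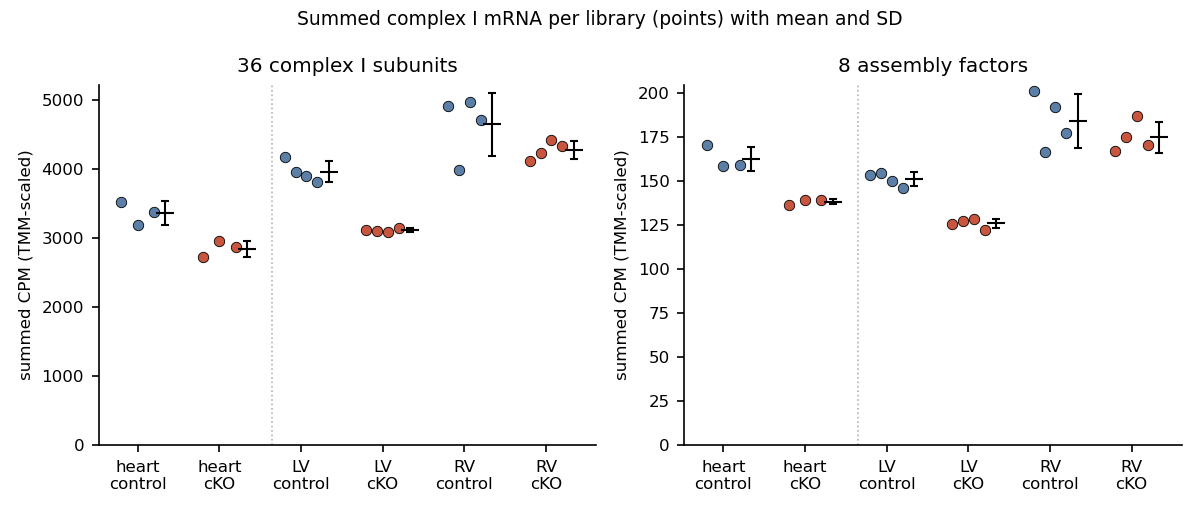
Summed CPM (TMM-scaled) of the 36 complex I subunits (left) and of the 8 assembly factors (right) in each of the 22 libraries. Points are libraries, horizontal lines with bars are the group mean and SD, and whole hearts, scaled apart from the ventricles, stand left of the dotted line. The 4 left ventricle cKO libraries lie between 3090 and 3146 CPM for the subunits, below each of the other 12 ventricle libraries.

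The core subunits of the N module form the path by which electrons enter. Gene coordinates are those of GENCODE M21 on GRCm38. Ndufv1 (ENSMUSG00000037916.14, chr19:4007384-4012806, minus strand), which binds NADH and the flavin, had 189.9, 188, 185 and 183 CPM in the cKO left ventricles and 259, 253, 236 and 239 CPM in the controls (log2 change -0.41, SE 0.06, adjusted p = 7.08e-05). Ndufv2, a partner of Ndufv1 with an iron-sulfur cluster, had 118, 119, 121 and 114 CPM against 174, 158, 161 and 153 CPM (log2 change -0.45, SE 0.06, adjusted p = 5.96e-05). Ndufs1, the largest subunit, which holds several clusters, had 232, 238, 243 and 231 CPM against 331, 323, 326 and 285 CPM (log2 change -0.42, SE 0.06, adjusted p = 0.000118). In each of these 3 genes every cKO library lay below every control. Among accessory N module genes, Ndufs6, a zinc-binding subunit, had 61.3, 56.7, 61.1 and 62.2 CPM in the cKO and 91, 81.4, 79.7 and 77.7 CPM in the controls (log2 change -0.45, SE 0.07, adjusted p = 0.000102). Ndufa12, which takes the place of the assembly factor Ndufaf2 late in assembly, went from 79.4 ± 1.68 to 58.8 ± 4.72 CPM (SD, n = 4), and Ndufs4, whose loss in mice gives a much used model of complex I deficiency, from 74.6 ± 5.29 to 59.2 ± 3.15 CPM. Both were called lower.

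The core subunits of the Q module carry electrons to ubiquinone. Ndufs7 (ENSMUSG00000020153.14, chr10:80249121-80256794, plus strand) holds the last iron-sulfur cluster before ubiquinone and had the lowest fold change of all 46 genes. It had 57.4, 57.1, 60.7 and 57.6 CPM in the cKO and 87.2, 78.8, 78.6 and 78.7 CPM in the controls (log2 change -0.47, SE 0.05, adjusted p = 5.08e-06). Its cKO and control libraries did not overlap. Ndufs3 had 101, 102, 98.9 and 102 CPM against 144, 129, 134 and 127 CPM (log2 change -0.40, SE 0.07, adjusted p = 0.000363). Ndufs8, which holds a pair of clusters, had 56.8, 59, 51 and 60.1 CPM against 70.7, 71.8, 65.5 and 66.4 CPM (log2 change -0.27, SE 0.07, adjusted p = 0.00709). Ndufs8 had the smallest fold change among the core subunits, and its groups did not overlap either. The accessory Q module genes Ndufa9 and Ndufa5 were called lower at -0.41 and -0.33.

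**Figure D2:**
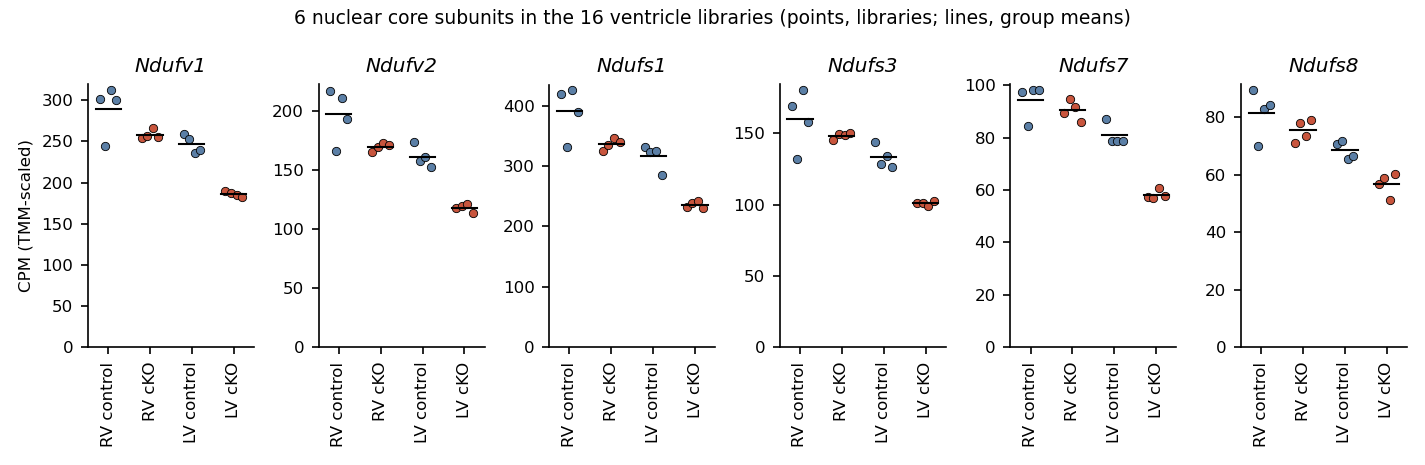
CPM (TMM-scaled, axis from 0) of 6 nuclear core subunits in the 16 ventricle libraries. Points are libraries and lines are group means. In each panel the 4 left ventricle cKO libraries lie below the other 12, and control 2 is the lowest of the right ventricle controls.

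In the membrane arm, the nuclear genes all encode accessory subunits, since the core subunits there come from the mitochondrial genome. Called members of the proximal part ranged from -0.39 (Ndufa8) to -0.23 (Ndufa13, also known as GRIM-19) and those of the distal part from -0.41 (Ndufb8) to -0.22 (Ndufb3). Ndufab1, the mitochondrial acyl carrier protein, which is also used in lipoic acid synthesis, went from 85.3 ± 0.817 to 68.1 ± 0.899 CPM and was called. Ndufa10 (-0.37), Ndufc2 (-0.38), Ndufb9 (-0.40) and the X-linked Ndufb11 (-0.32) were also called lower.

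The 5 subunit genes not called in the left ventricle were Ndufa1, Ndufv3, Ndufa7, Ndufa3 and Ndufb4, at -0.06, -0.08, -0.09, -0.12 and -0.19. The X-linked membrane subunit Ndufa1 had 41, 38.1, 38.5 and 44.5 CPM in the cKO and 43.4, 40.5, 40.6 and 44.4 CPM in the controls, which overlapped (SE 0.06, adjusted p = 0.519 in edgeR's test). Ndufv3, an accessory subunit next to Ndufv1, had 99.8, 96.3, 90.2 and 106 CPM against 104, 105, 102 and 103 CPM (SE 0.06, adjusted p = 0.357). On log2(TPM + 1) their values were 0.0022 for Ndufa1 and 0.03 for Ndufv3, above 0 rather than below it. In Ndufa3, cKO library 4 (84.3 CPM) lay above all controls while the other cKO libraries (65.1 to 67.6 CPM) lay below them. Ndufb4 shares sequence with the processed pseudogene Ndufb4c, which had reads of its own, so its counts are uncertain. Ndufa13, Ndufb2, Ndufb8 and Ndufb9 each overlap another annotated protein-coding gene on the same strand, and the effect of this on their counts was not tested. The fold changes by ventricle are plotted by part of the enzyme.

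**Figure D3:**
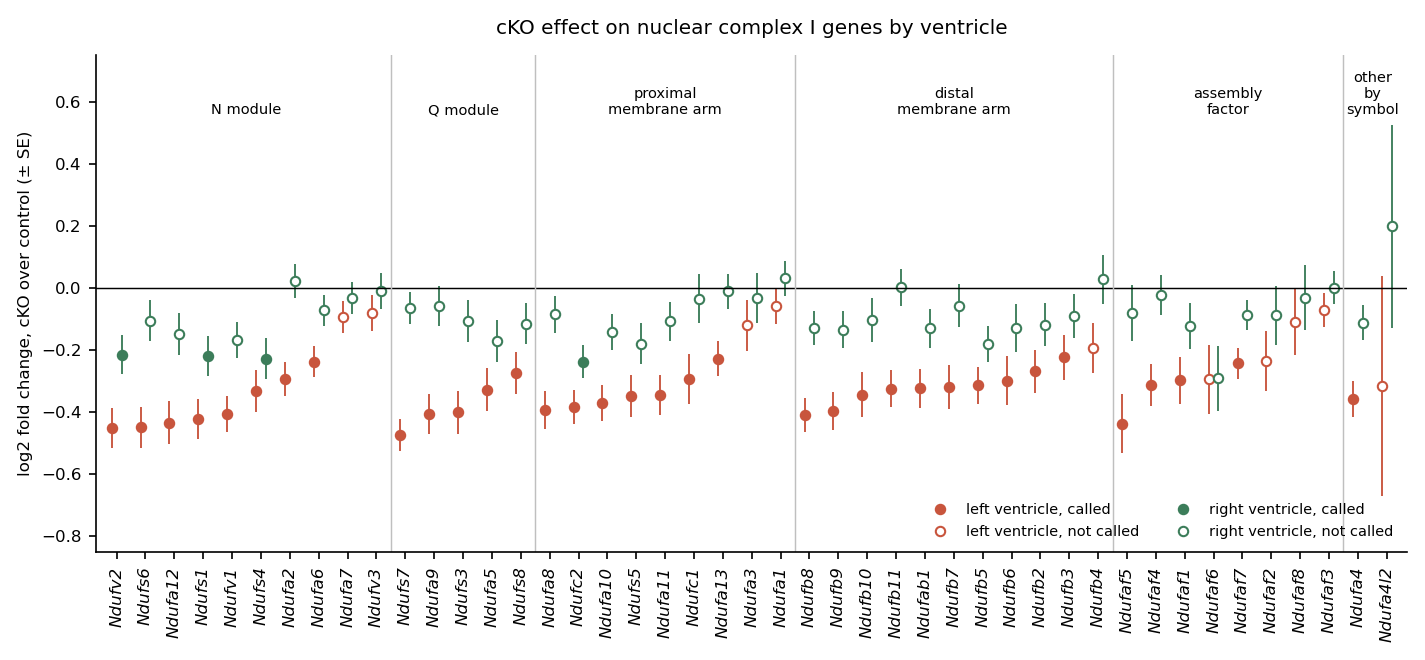
Log2 fold change, cKO over control, of the nuclear complex I genes in the left (red) and right (green) ventricle, with bars of 1 SE, ordered by part of the enzyme and by left ventricle value. Filled points passed an adjusted p of 0.05 and open points did not. All left ventricle points lie below 0, and for each gene the right ventricle point lies above the left one, with Ndufaf6 showing a left minus right difference of only -0.0036.

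Of the 8 assembly factors, 4 were lower in the left ventricle and 0 higher, with a median of -0.27. Of all genes, 13.4% were lower and 12.3% higher. DESeq2 and voom also called 4 factors lower and 0 higher, and the 14 other settings that kept every library called 3 to 5 lower and 0 higher. At an unadjusted p under 0.05, 6 factors were lower and 0 higher, beside 5955 of all 16448 genes in either direction. The sum over the 8 factors was 125, 127, 128 and 122 CPM in the cKO and 153, 155, 149.6 and 146 CPM in the controls, without overlap. Ndufaf5 (ENSMUSG00000027384.6, chr2:140170649-140203689, plus strand), an enzyme that hydroxylates an arginine of the Ndufs7 protein, had 11.6, 12, 11.3 and 10.9 CPM in the cKO and 15.5, 17, 15.5 and 14 CPM in the controls (log2 change -0.44, SE 0.09, adjusted p = 0.00247). Ndufaf4, which acts on the early Q module together with Ndufaf3, had 29.6, 31.8, 32.3 and 29.8 CPM against 40.8, 38.8, 39.4 and 34.5 CPM (log2 change -0.31, SE 0.07, adjusted p = 0.00245). Neither gene showed overlap between its groups. Ndufaf1, part of the assembly complex of the membrane arm, went from 19.4 ± 0.498 to 15.8 ± 0.594 CPM (log2 change -0.30, SE 0.08, adjusted p = 0.00838), and Ndufaf7, a protein arginine methyltransferase, from 30.5 ± 0.296 to 25.8 ± 1.19 CPM (log2 change -0.24, SE 0.05, adjusted p = 0.00158). The call of Ndufaf7 was lost with length-scaled counts (-0.25, adjusted p = 0.0637, edgeR) and on log2(TPM + 1) (-0.19, adjusted p = 0.109, limma). The other 4 factors were not called. Ndufaf6 had a log2 change of -0.29, SE 0.11, adjusted p = 0.0626, a result that passed the threshold without right ventricle control 2 (adjusted p = 0.0318), which shares the fit. Ndufaf2, a relative of Ndufa12, had a log2 change of -0.23, SE 0.10, adjusted p = 0.0862, and Ndufaf3 had a log2 change of -0.07, SE 0.06, adjusted p = 0.406. Ndufaf8, the partner of Ndufaf5, had a log2 change of -0.11, SE 0.11, adjusted p = 0.509, and its sign was positive with length-scaled counts (0.08).

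Ndufa4 fell with the subunits of the respiratory chain. It had 175, 179.8, 169 and 181 CPM in the cKO left ventricles and 237, 227, 222 and 217 CPM in the controls (log2 change -0.36, SE 0.06, adjusted p = 0.000194), without overlap. Its paralog Ndufa4l2, known as a target of hypoxia signalling, was at a low level, with 2.87, 1.52, 1.71 and 1.97 CPM against 2.12, 2.17, 2.58 and 3.14 CPM, and the groups overlapped (log2 change -0.32, SE 0.35, adjusted p = 0.575).

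Markers of cell types moved in the same comparison. Of 10 cardiomyocyte markers, 7 were lower and 0 higher, with a median of -0.24, and their summed level was 23859.6 to 24059 TPM in the cKO and 26001 to 28080.5 TPM in the controls. All 3 ventricular cardiomyocyte markers were lower. Of 8 endothelial and endocardial markers, 6 were higher (summed level 479.5 to 536 TPM in the cKO, 388 to 403 TPM in the controls). Of 6 atrial cardiomyocyte markers, 4 were higher (4726 to 5576 against 3259 to 3511 TPM), and of 5 immune markers 2 were (126 to 160.4 against 60.3 to 94.7 TPM). Of 6 epicardial markers, 5 were higher (131 to 148 against 94.3 to 104 TPM), and of 8 erythroid markers 1 was (30829.5 to 76658 against 21506.5 to 40950.3 TPM). None of these lists had a marker at 0 in a whole group. With haemoglobin genes left out of the scaling, the count of lower subunits was again 31. The part of the other cell types in the fall of complex I genes was not tested.

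In the right ventricle, which asks the same of the other chamber, 5 of the 36 subunits were lower (13.9%, against 4.19% of all genes called lower) and 0 higher (6.12% of all genes). At an unadjusted p under 0.05, 13 were lower and 0 higher, beside 3801 of all 16448 genes in either direction. DESeq2 called 7 lower and voom 14, and both called 0 higher. Of all genes, DESeq2 called 818 of 15786 lower and voom 1097 of 16448. The 5 subunits called with edgeR included Ndufc2, Ndufs4, Ndufs1 and Ndufv2. All 5 were among the 31 of 36 (86.1%) called lower in the left ventricle, in the same fit. With so large a share called there, this overlap says little. The median over the subunits was -0.11, with a range from -0.24 to 0.03. Of the assembly factors, 0 were called with edgeR's quasi-likelihood test (1 at an unadjusted p under 0.05, 0 by DESeq2 and 1 by voom), with a median of -0.08. The cKO libraries summed to 4117, 4235, 4413 and 4327 CPM for the subunits and the controls to 4917, 3988, 4976 and 4715 CPM.

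The right ventricle groups overlapped through control 2, whose sum of 3988 CPM lay below all 4 cKO libraries, whereas the other 3 controls lay above all of them. Without control 2, 21 subunits and 1 assembly factor (Ndufaf6) were lower (7.12% of all genes), and the subunit median was -0.19. Without each of the other right ventricle libraries in turn, 1 or 2 subunits were lower: 1 without cKO 1 or 2 or control 1 or 3, and 2 without cKO 3 or 4 or control 4. Over all genes, these fits called 472 to 536 lower, beside 689 with every library. Leaving out left ventricle cKO 2 gave 2 subunits, and left ventricle control 2 or 3 gave 3 each, and these libraries are in the same fit. Of all genes, 612 to 619 were lower there. The 8 right ventricle libraries fitted alone gave 1 subunit (391 of all 15691 genes lower), and length-scaled counts gave 0 (300 of 16590).

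Ndufc2, a membrane-arm subunit, was the 1 gene of the 46 whose right ventricle groups did not overlap (5.14% of all genes were lower without overlap). With control 2 left out, 28 of the 46 were lower without overlap (11.4% of all genes), among them all 7 core subunits. Ndufc2 had 78.9, 80.8, 85.5 and 80.7 CPM in the cKO and 99.96, 86.4, 102 and 95.8 CPM in the controls (log2 change -0.24, SE 0.05, adjusted p = 0.0084). Among core subunits, Ndufv2 had 165, 169.5, 172 and 172 CPM against 217, 166, 211 and 193 CPM (log2 change -0.21, SE 0.06, adjusted p = 0.038) and Ndufs1 had a log2 change of -0.22, SE 0.06, adjusted p = 0.0384. In both, control 2 lay within the range of the cKO libraries. Ndufs4 had 74.7, 75.3, 77.3 and 81.1 CPM against 97.9, 79.7, 98.3 and 85.2 CPM (log2 change -0.23, SE 0.07, adjusted p = 0.0366). Ndufv1, Ndufs3, Ndufs8 and Ndufs7 were not called, with Ndufv1 at -0.17 (adjusted p = 0.083 with edgeR), Ndufs3 at -0.11 (0.383), Ndufs8 at -0.11 (0.338) and Ndufs7 at -0.06 (0.513). Without control 2, Ndufv1, Ndufs3 and Ndufs8 were called (adjusted p = 1.71e-04, 0.00871 and 0.0369) and Ndufs7 was not (0.0892).

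The assembly factor with the lowest right ventricle value was Ndufaf6, with 12.1, 11.8, 12.4 and 12.4 CPM in the cKO and 16.3, 12.3, 16 and 15 CPM in the controls (log2 change -0.29, SE 0.11, adjusted p = 0.098, and adjusted p = 0.0151 without control 2). Ndufaf1 to Ndufaf5 had -0.12, -0.09, 0.0018, -0.02 and -0.08, and Ndufaf7 and Ndufaf8 had -0.09 and -0.03. Their adjusted p values ran from 0.311 to 0.995 (edgeR). The 3 highest values of the 46 were those of Ndufa4l2 (log2 change 0.20, SE 0.33, adjusted p = 0.781), Ndufa1 (log2 change 0.03, SE 0.06, adjusted p = 0.803) and Ndufb4 (log2 change 0.03, SE 0.08, adjusted p = 0.881). Ndufa4 had a log2 change of -0.11, SE 0.06, adjusted p = 0.259, and it was called without control 2 (-0.18, adjusted p = 0.00256). Cardiomyocyte markers had a median of -0.10 with 0 of 10 called (5 lower without control 2; 0 to 5 across settings that kept every library), and their sums overlapped (29023 to 31345 TPM in the cKO, 28392 to 31403 TPM in the controls). Of the erythroid markers, 5 of 8 were higher (26723 to 50476 against 10674 to 26561 TPM), and 1 without control 2. Atrial cardiomyocyte markers had 3 of 6 higher (5752 to 6030 against 4132 to 4486 TPM), with or without control 2. Endothelial markers had 2 of 8 higher, 4 without control 2, and epicardial and immune markers 1 each. Mesenchymal markers had 6 of 7 below 0 and a median of -0.46, but 0 were called. Their sums were 510 to 643 TPM in the cKO and 504 to 1195 TPM in the controls, which overlapped. The controls spread widely (mean 692, SD 336 TPM, against mean 575, SD 71.4 TPM in the cKO), so the direction of these markers is uncertain. The part of these cell types in these values was not tested.

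The difference between the ventricles in the cKO effect was tested gene by gene. All 46 genes had the lower fold change in the left ventricle, where 50.2% of all genes did, and the median over the subunits was -0.22. The subunit median was -0.16 without right ventricle control 2 and -0.11 on log2(TPM + 1). Of the 46, 1 was called, Ndufs7, beside 1.43% of all genes (0.973% in that direction and 0.462% in the other). At an unadjusted p under 0.05, 22 subunits and 3 assembly factors had a difference below 0 and 0 above it, beside 2243 of all 16448 genes in either direction. Ndufs7 had 89.3, 94.9, 91.8 and 85.8 CPM in the cKO right ventricles and 97.4, 84.3, 98.2 and 98.1 CPM in their controls, next to the left ventricle values given above, and its left minus right difference was -0.41 (SE 0.07, adjusted p = 0.00889, edgeR). Its difference was -0.36 without right ventricle control 2 (adjusted p = 0.00408). The next core subunit was Ndufs3 (-0.29, adjusted p = 0.159), and the smallest was Ndufs8 (-0.16, adjusted p = 0.505). The call of Ndufs7 was lost with length-scaled counts (-0.39, adjusted p = 0.0511) and on log2(TPM + 1) (-0.32, adjusted p = 0.0566, limma). DESeq2 called 7 of the 46 genes, voom 6 and edgeR with library totals or with robust dispersion 4 each. Of all genes, these settings called 467, 414, 276 and 302 in either direction. For a gene not called here, a call in the left and none in the right ventricle does not show that the ventricles differ. Leaving out single libraries gave 1 to 4 called genes: 4 without right ventricle control 2 (1.42% of all genes), 3 without right ventricle control 1, and 2 without right ventricle control 3 or 4 or left ventricle cKO 4.

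Left and right ventricles of the same genotype were then compared. In controls, 25 of 36 subunits (69.4%, against 12.0% of all genes lower in the left), 6 of 8 assembly factors and Ndufa4 were lower on the left side and 0 were higher (30 and 6 lower and 0 higher at an unadjusted p under 0.05; DESeq2 called 26 and 6, and voom 31 and 6, lower and 0 higher). Of all genes, 9.02% were higher on the left. DESeq2 called 2072 of 15786 genes lower and voom 2482 of 16448, and 5488 had an unadjusted p under 0.05 in either direction. The subunit median was -0.25. The groups did not overlap in 13 of the 46 genes (11.0% of all genes), and right ventricle control 2 was again the library that reached down. Without it, 31 subunits and 6 factors were lower (14.8% of all genes), with a subunit median of -0.32, and 38 of the 46 genes did not overlap (18% of all genes). The call depended on the scale, since length-scaled counts gave 10 of 46 and limma on log2(TPM + 1) gave 9, with a subunit median of -0.14. With library totals in place of TMM scaling, 22 subunits and 5 factors were lower and 0 higher, while calls over all genes turned from 1483 higher and 1979 lower to 2290 higher and 1294 lower. The lowest called values were those of Ndufaf6 (log2 change -0.55, SE 0.11, adjusted p = 0.00164), Ndufa5, a Q module subunit (log2 change -0.40, SE 0.07, adjusted p = 0.000637), and Ndufaf4 (log2 change -0.38, SE 0.07, adjusted p = 0.000758). The call of Ndufaf6 was lost with length-scaled counts (-0.42, adjusted p = 0.321, edgeR) and on log2(TPM + 1) (-0.30, adjusted p = 0.453, limma). Those of Ndufa5 and Ndufaf4 held under all 30 alternatives. Ndufa5 had 67.2, 60.5, 60.7 and 58.6 CPM in left and 82.8, 69.3, 90.8 and 82.8 CPM in right control ventricles, and all 7 core subunits were called between -0.31 (Ndufs1) and -0.23 (Ndufs7).

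In the cKO, 35 of 36 subunits (97.2%, against 18.3% of all genes), 7 of 8 assembly factors, Ndufa4 and Ndufa4l2 were lower in the left ventricle, and 0 were higher (DESeq2 35 and 7 lower, 0 higher). Of all genes, 14.5% were higher. With library totals, 34 and 6 were lower, while calls over all genes turned from 2387 higher and 3011 lower to 3931 higher and 2004 lower. At an unadjusted p under 0.05, 35 and 8 were lower and 0 higher, beside 6949 of all 16448 genes in either direction. DESeq2 called 2891 of 16424 genes lower. The subunit median was -0.49, and in 35 subunits the 2 sides did not overlap (18.7% of all genes). On log2(TPM + 1), the median was -0.26 and 21 subunits were lower. The 1 subunit not called was Ndufa3 (-0.17), and the 1 factor Ndufaf8 (-0.23, adjusted p = 0.108, edgeR). The lowest values were those of Ndufa4l2 (log2 change -0.99, SE 0.34, adjusted p = 0.0367), Ndufaf5 (log2 change -0.67, SE 0.09, adjusted p = 5.24e-05) and Ndufaf4 (log2 change -0.66, SE 0.07, adjusted p = 2.02e-06). Ndufaf4 had 29.6, 31.8, 32.3 and 29.8 CPM in left and 46.1, 49.7, 54.2 and 45.9 CPM in right cKO ventricles, whereas Ndufa4l2 rests on 1.52 to 5.57 CPM per library and its groups overlapped. Its call was lost under 9 of 30 alternatives, among them library totals (adjusted p = 0.0549), length-scaled counts (0.11) and log2(TPM + 1) (-0.61, adjusted p = 0.216, limma), and without left ventricle cKO 2, 3 or 4 or right ventricle cKO 1, 2 or 4 (0.0582 to 0.118). Cardiomyocyte markers were also lower on the left, 4 of 10 in controls (median -0.13; 7 without right ventricle control 2) and 8 of 10 in the cKO (median -0.38). In the cKO, 5 of 8 endothelial, 5 of 6 epicardial, 3 of 7 mesenchymal (5 without right ventricle control 2, which shares the fit) and 3 of 5 immune markers were higher on the left and 0 lower. Of 6 atrial markers 1 was higher and 2 were lower. In controls, 2 endothelial, 1 epicardial, 1 erythroid, 1 immune and 2 atrial markers were higher and 2 atrial markers lower, and without right ventricle control 2, 5 mesenchymal markers were higher. The part of these cell types was not tested.

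**Figure D4:**
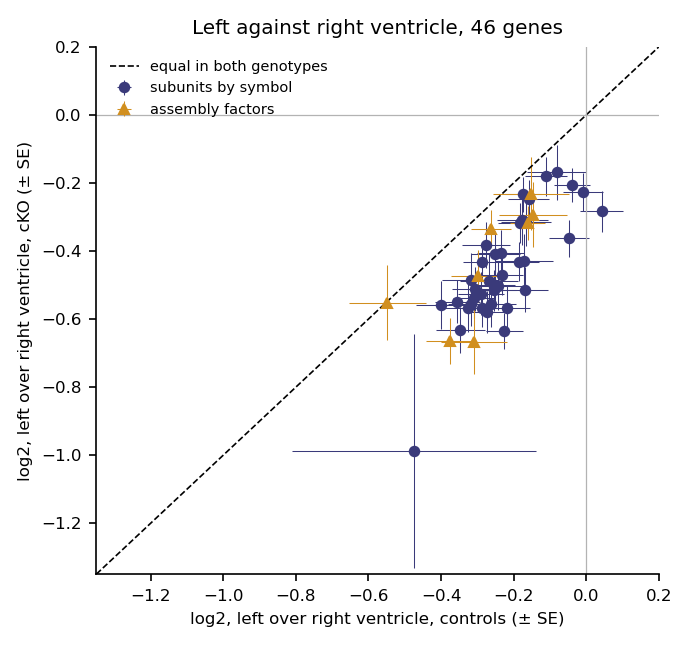
Log2 ratio of left over right ventricle in controls (x axis) and in the cKO (y axis) for the 46 genes, with bars of 1 SE. Circles are subunits by symbol, triangles assembly factors, and the dashed line marks equal ratios in both genotypes. All 46 points lie on the lower side of the line, with Ndufaf6 almost on it.

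Across the 4 ventricle groups, 38 of the 46 genes had group means in the order right control, right cKO, left control, left cKO (12.0% of all genes), the right control was highest in 40 (25.9% of all genes), and all 46 had their lowest mean in the left ventricle cKO (30.8% of all genes). The lowest of the 16 ventricle libraries was a left ventricle cKO library in each of the 36 subunits (30.1% of all genes), with 6, 10, 10 and 10 genes lowest in libraries 1 to 4. The right ventricle cKO mean lay above the left ventricle control mean in 43 of the 46. For the subunit sum, right ventricle cKO and left ventricle control overlapped by 1 library, left ventricle control 1 at 4171 CPM against the lowest right ventricle cKO at 4117 CPM.

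In whole hearts, which hold both ventricles and other parts, 5 of 36 subunits were lower in the cKO (13.9%, against 2.07% of all 19160 genes) and 0 higher (1.96% of all genes), with a median of -0.23 beside 0.01 over all genes. At an unadjusted p under 0.05, 26 were lower and 0 higher, beside 3291 of all 19160 genes in either direction. DESeq2 and voom called 21 and 19 lower and 0 higher. Of all genes, DESeq2 called 922 of 15065 lower and voom 928 of 19160. The 5 called with edgeR included Ndufs7, Ndufa8, Ndufv1 and Ndufa9. All 5 were among the 31 of 36 subunits (86.1%) called lower in the left ventricle. With so large a share called there, this overlap says little. Of the assembly factors, 0 were called with edgeR (4 lower at an unadjusted p under 0.05, 1 by DESeq2 and 1 by voom), with a median of -0.20. The subunit sums were 2722, 2949.7 and 2866 CPM in the cKO and 3525, 3182 and 3371 CPM in the controls, and those of the factors 136, 139 and 139 against 170.3, 158 and 159 CPM, both without overlap. The groups did not overlap in 25 of 36 subunits (12.9% of all genes).

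Ndufs7 had 51.3, 57.8 and 55.9 CPM in the cKO hearts and 79.2, 66 and 69.5 CPM in the controls (log2 change -0.38, SE 0.08, adjusted p = 0.0446). Ndufv1 had 169, 177 and 179 CPM against 219, 212 and 219 CPM (log2 change -0.31, SE 0.04, adjusted p = 0.0098). Both were separated between the groups. The call of Ndufs7 was lost with library totals (adjusted p = 0.0508), with length-scaled counts (-0.20, 0.323), on log2(TPM + 1) (-0.14, 0.44) and with the replicate block (0.157), and that of Ndufv1 with length-scaled counts (-0.34, 0.155), on log2(TPM + 1) (-0.29, 0.235) and with the replicate block (0.075; edgeR or, on TPM, limma). Ndufv2, Ndufs1, Ndufs3 and Ndufs8 were separated too but not called, from -0.27 (Ndufs8, adjusted p = 0.111 with edgeR) to -0.18 (Ndufs3, adjusted p = 0.132). The lowest values of the 46 were those of Ndufaf5 (log2 change -0.41, SE 0.11, adjusted p = 0.108), Ndufs7 and Ndufaf1 (log2 change -0.37, SE 0.13, adjusted p = 0.175), and the highest those of Ndufa4l2 (log2 change 0.25, SE 0.18, adjusted p = 0.539), Ndufaf2 (log2 change -0.05, SE 0.14, adjusted p = 0.892) and Ndufb3 (log2 change -0.06, SE 0.07, adjusted p = 0.719). The other assembly factors lay between -0.30 (Ndufaf8) and -0.15 (Ndufaf3), and Ndufa4 had a log2 change of -0.23, SE 0.07, adjusted p = 0.108. In Ndufs7, Ndufaf1 and Ndufaf5 whole heart control 1 was the highest of the controls. Without it, 9 subunits were lower (3.25% of all genes), the median was -0.19, Ndufaf1 had -0.23 and Ndufaf8 -0.16. On log2(TPM + 1), the subunit median was -0.10 and 0 subunits were called. Leaving out whole heart cKO 1, 2 or 3 or control 3 gave 0 subunits. Calls over all genes also dropped in these fits, from 397 lower to 96, 81, 98 and 117 lower. Cardiomyocyte markers had 4 of 10 lower with a median of -0.23 (19780.2 to 21143 TPM in the cKO, 21914 to 23636 TPM in the controls), and all 3 ventricular markers were lower. Of 6 atrial markers, 3 were higher (4744 to 4854 against 3306 to 3731 TPM), of 8 endothelial markers 2 (477 to 514 against 395 to 430.2 TPM) and of 5 immune markers 1 (162 to 185 against 56.9 to 74.8 TPM). The part of these cell types was not tested.

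The 7 complex I subunits encoded in the mitochondrial genome are core subunits of the membrane arm. In the left ventricle 2 of the 7 were lower, mt-Nd1 (-0.37) and mt-Nd2 (-0.29), and 0 higher, and the median was -0.09, beside -0.33 for the nuclear subunits. In the right ventricle and the whole heart 0 of the 7 were called (edgeR; 2 and 0 at an unadjusted p under 0.05), with medians of -0.15 and 0.11. mt-Nd1 had 3640.1, 3891, 3706 and 3155 CPM in the left ventricle cKO and 4639, 5053, 4845 and 4011 CPM in the controls, without overlap. The highest of the 7 there was mt-Nd6 (0.60), whose cKO libraries were scattered. It had 42.4, 133, 34.6 and 146 CPM in the cKO and 48, 71.9, 58.5 and 56.9 CPM in the controls. The difference between nuclear and mitochondrially encoded genes was not tested. These transcripts were captured by a kit that selects polyadenylated RNA, and mitochondrial messages carry at most short tails.

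Nuclear subunits of the other respiratory complexes fell in the left ventricle as well, with 4 of 4 for complex II, 9 of 9 for complex III, 11 of 12 for complex IV and 14 of 15 for ATP synthase, at medians of -0.48, -0.41, -0.41 and -0.37. Together 38 of 40 were lower and 1 was higher, the muscle cytochrome oxidase gene Cox6a2 (0.45), with a median of -0.40 against -0.33 for complex I. In the right ventricle 3 of the 40 were lower and Cox6a2 was again higher (median -0.12; 34 lower without control 2), and in the whole heart 15 were lower (median -0.29; 21 without control 1). Among 10 complex I assembly factors without an Nduf symbol, 6 were lower in the left ventricle and 0 higher (median -0.20). The 6 included Ecsit (-0.44), a partner of Ndufaf1, and Tmem70 (-0.36). Of 11 regulators of mitochondrial genes, 7 were lower in the left ventricle, 5 in the right and 3 in the whole heart, and 0 higher. The coactivator genes Perm1 and Ppargc1a were at -1.74 and -0.85 in the left ventricle and at -1.27 and -0.27 in the right, all called. Perm1 was under 1 TPM in every left ventricle cKO library, so its fold change rests on a low level. Nrf1 (-0.04) and Yy1 (-0.01), whose motifs are shown above, were not called in the left ventricle, and Esrra was at -0.40.

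**Figure D5:**
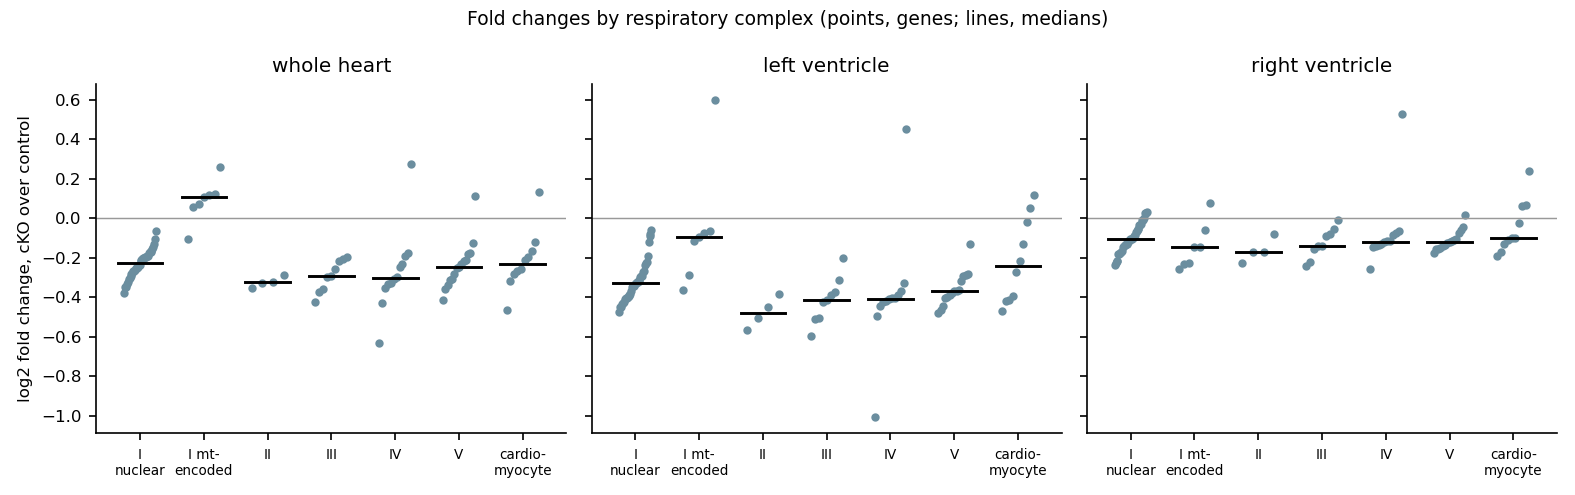
Log2 fold change, cKO over control, of each nuclear complex I subunit, each mitochondrially encoded one, the nuclear subunits of complexes II to V and 10 cardiomyocyte markers in the 3 tissues. Points are genes and lines are medians. In the left ventricle the medians of the nuclear sets lie between -0.48 and -0.33, with the mitochondrially encoded set at -0.09 and the cardiomyocyte markers at -0.24.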

How the data were processed

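Per the labels' protocols, stranded mRNA libraries were made from TRIzol RNA. Per the submitters' processing notes, the authors used Salmon 1.2.1 and DESeq2 1.22.2 with build GRCm38.p6. The deposited tables give, per the file headers, estimated counts and TPM for each transcript; estimated counts were summed per gene through GENCODE M21 and rounded, and deposited TPM were summed. Transcripts without a match held at most 0.204% of reads.

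Counts were tested with edgeR 4.0.16 in R 4.3.3 (TMM scaling, filterByExpr, quasi-likelihood F test, Benjamini-Hochberg adjustment over all genes, threshold 0.05). A first fit took the whole hearts (19160 genes); another took all 16 ventricle libraries as 4 groups (16448 genes). The scripts were tested on simulated data. Alternatives included DESeq2 1.42.0, limma 3.58.1 (voom with quality weights, and log2(TPM + 1)), other scalings and filters, and leaving out each library. CPM are TMM-scaled.

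The genes, the lists and the tests were chosen with earlier results of these data known. Test statistics are given for the core subunits, Ndufa4, Ndufa4l2, the Ndufaf genes, the 3 lowest and 3 highest log2 fold changes of each cKO comparison, genes called in the difference between ventricles, and the 3 largest called changes between ventricles. Counts and medians cover all 46 genes, but the values of 1 gene are not reported here. Sequences are from RefSeq. Labels do not say which libraries come from the same embryo or litter. The number of libraries limits the precision of each group mean.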

Additional observations from a re-analysis of the deposited data

Results flagged for a closer look

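In groups of 4 libraries, 1 library stood far from the other 3 in 6 of 112 groups of members given with test statistics, where chance flags about 1 in 20 groups. For Ndufs7 these were left ventricle cKO 3 (60.7 CPM, above the others of its group), left ventricle control 1 (87.2 CPM, above) and right ventricle control 2 (84.3 CPM, below). Right ventricle control 2 was also apart for Ndufv3, at 95.9 CPM. Right ventricle cKO 3 was apart for Ndufa5 (79.4 CPM) and left ventricle control 1 for Ndufaf3 (13.1 CPM).

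Ndufs7 was the 1 gene of the 46 (2.17%) called in the test of the difference between ventricles, close to the 1.43% of all genes. Its left minus right difference was -0.41 on the log2 scale (SE 0.07, adjusted p = 0.00889 with edgeR's quasi-likelihood test). Without right ventricle control 2, flagged above for this gene, it was -0.36 (adjusted p = 0.00408, edgeR). The call was lost with length-scaled counts (adjusted p = 0.0511) and on log2(TPM + 1) (adjusted p = 0.0566, limma). All 4 left ventricle cKO libraries lay below all 4 controls, whereas in the right ventricle the groups overlapped.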

How the results depend on the processing

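Of 1781 fold changes of single genes under other settings or without 1 library, 1624 kept their direction and side of the threshold, 87 lost a call (50 of them in the right ventricle and 21 in the whole heart), 35 gained one and 35 changed sign. Left ventricle counts held, with 30 to 32 subunits and 4 to 5 assembly factors lower when any 1 library was left out. Left-out libraries gave 1 to 21 subunits and 0 to 1 factors in the right ventricle, 0 to 9 subunits and 0 to 0 factors in the whole heart, 1 to 4 genes in the difference between ventricles, 23 to 38 between control ventricles and 41 to 44 between cKO ventricles. Whole heart subunits, 5 as reported, were 21 with DESeq2, 19 with voom, 18 with all 22 libraries in 1 model, 8 with no filter on low counts, 1 with length-scaled counts and 0 with limma on log2(TPM + 1), and factors were 1, 1 and 3 with DESeq2, voom and the 22 libraries. Of all genes, the model of 22 libraries called 1209 of 17560 lower in the whole heart, beside 397 of 19160 as reported. Right ventricle subunits were 14 with voom (1 factor), 3 on log2(TPM + 1), 1 with only the 2 groups compared and 0 with length-scaled counts. Genes called in the difference between ventricles were 7 with DESeq2, 6 with voom, 4 with library totals, 4 with robust dispersion, 2 with a filter of 1 CPM, and 0 with length-scaled counts and on log2(TPM + 1). Between control ventricles 10 genes were called with length-scaled counts and 9 on log2(TPM + 1), and between cKO ventricles 26 on the latter. The cause was not tested in any of these. On log2(TPM + 1), calls over all genes split into 1704 higher and 933 lower in the left ventricle (2017 and 2199 on counts), 64 and 18 in the whole heart (376 and 397), 31 and 15 in the difference (76 and 160), 896 and 491 between control and 3007 and 933 between cKO ventricles; length-scaled counts gave 89 and 46 in the whole heart.

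Signs reversed 35 times, all for values that were not called. In the left ventricle, log2(TPM + 1) gave Ndufa1 0.0022, Ndufaf3 0.049, Ndufaf8 0.14 and Ndufv3 0.0305, and length-scaled counts gave Ndufaf8 0.083. In the right ventricle, Ndufaf3 was -0.0069 with RLE factors, -0.0045 with library totals, -0.0072 with DESeq2, -0.00062 with all libraries in 1 model and -0.00042 with only the 2 groups. Ndufaf8 was 0.018 with length-scaled counts and 0.012 on log2(TPM + 1), and Ndufb4 was -0.029 with voom. Leaving out single libraries gave ranges from -0.021 to 0.023 for Ndufaf3, -0.075 to 0.017 for Ndufaf4, -0.104 to 0.041 for Ndufaf8 and -0.043 to 0.106 for Ndufb4. Ndufa1 reached -0.015 without right ventricle control 2. Ndufa4l2 ranged from -0.0094 (without cKO 1) to 0.64. In the whole heart, log2(TPM + 1) gave Ndufaf2 0.054, Ndufaf8 0.018 and Ndufb3 0.00698, and leaving out libraries gave -0.127 to 0.089 for Ndufaf2 and -0.134 to 0.0027 for Ndufb3.

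Correlations of the deviations of libraries with the same replicate number ran from -0.116 to 0.237. Left and right cKO ventricles had 4 positive values (0.0528 to 0.237), and in no pair of groups were all over 0.1, so the numbers were not taken as pairs. With the replicate block, 0 whole heart subunits and 0 factors were called, 31 and 4 in the left ventricle, 4 and 0 in the right ventricle, 1 gene in the difference, 33 between control and 45 between cKO ventricles. Of all 19160 genes, the block called 85 lower in the whole heart.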

Other observations

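Ndufv3 has a long form (Ndufv3-201, with 468 codons) and a short form (Ndufv3-202, with 104 codons), which differ by a coding exon of 1092 bases. The short form held 88.4% to 92.7% of the gene's TPM in the 16 ventricle libraries and 77.2% to 79.8% in the 6 whole hearts. In the left ventricle the short form had 261.8 ± 44.8 TPM in the cKO and 252 ± 4.03 TPM in the controls (SD, n = 4), and the long form 21.6 ± 2.15 and 22.8 ± 1.78 TPM. These groups overlapped for both forms. The effective length that Salmon gave to the short form was 249 to 289 bases in the left ventricle cKO and 349 to 443 bases in the whole hearts, and its part in the tissue difference in TPM was not tested.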
